A study of Mus musculus with 3 samples.

Results

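H3K4me3 regions of medium width that lay far from any called H3K27me3 region were described along the autosomes of mouse primordial germ cells. They were chosen from the deposited H3K4me3 list by 2 measured values. The first is a width of 1000 to 4000 bp, and the second is a distance of more than 5000 bp, edge to edge, to the nearest region of the deposited H3K27me3 list. Chromosomes X and Y and the mitochondrial genome were left out. The rule kept 13566 of 47928 H3K4me3 regions, or 28.3%. They are called H3K4me3-only regions here, which means that no H3K27me3 region was called nearby and not that the mark was absent. Width and distance to H3K27me3 are therefore the terms of the choice and not findings.

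The lists come from chromatin immunoprecipitation and sequencing (ChIP-seq) of germ cells of E11.5 embryos. The series holds 3 samples, an H3K27me3 precipitation, an H3K4me3 precipitation and an input control, and each stands for 2 replicates. All share the same cells: gonadal regions of several embryos from an Oct4:GFP transgenic B6 line crossed with Swiss-Webster mice were pooled, and GFP+ cells were sorted in aliquots of 104000 and 97000. GFP under Oct4 control is the only marker that defines the cells. Each mark has 1 list of called regions on genome build mm9, with no read count or score, so the depth behind a region is unknown. The spread between replicates cannot be computed. The input was not analysed here, and no gene or DNA sequence was assigned to a region, so the identity of the cells was not checked against marker genes. Values are positions and counts of regions. Intervals after percentages are 95% Wilson intervals, which cover counting error only, because neighbouring regions of 1 list are not replicates.

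Trimethylation of lysine 4 of histone H3 is placed by the SET1 and MLL methyltransferase complexes, which are drawn to unmethylated CpG-rich sequence, and it marks the nucleosomes on either side of active or poised transcription start sites. Polycomb repressive complex 2 places trimethylation of lysine 27 at silent developmental genes. Promoters that carry the first mark alone typically belong to genes used in most cells. Where 2 such promoters lie head to head, the marked nucleosomes can run together or leave a short unmarked gap. Germ cells in the gonad at this stage have lost most of their DNA methylation, which leaves CpG-rich sequence largely unmethylated.

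H3K4me3-only regions were the most common kind of medium-width H3K4me3 region. Of the 18929 autosomal H3K4me3 regions of 1000 to 4000 bp, they made up 71.7% (71.0 to 72.3%). A further 4440 (23.5%) overlapped H3K27me3 by at least 1 bp, and 923 (4.88%) did not overlap but lay 5000 bp or less away. The H3K4me3-only regions covered 24.9 Mb, which is 1.01% of the autosomes and 50.96% of all autosomal H3K4me3 length. Their median width was 1600 bp (quartiles 1200 and 2200 bp), and the same 3 values held for the medium-width regions that overlapped H3K27me3. Widths of 1000 and 1200 bp made up 28.0% of the set and widths of 3000 to 4000 bp 9.51%. At the lower limit, 2090 regions of 1000 bp were kept and 2786 regions of 800 bp were not. At the upper limit, 101 regions of 4000 bp were kept and 83 of 4200 bp were not.

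Distances to H3K27me3, bounded by the rule, are given to describe the set. The median distance to H3K27me3 was 78.3 kb (quartiles 32.1 and 183.0 kb). Only 5.71% of the set lay 10 kb or less from H3K27me3, 35.7% lay beyond 100 kb and up to 500 kb, and 6.50% lay farther than that. At the threshold itself, 33 medium-width regions had a gap of 5200 bp and were kept, and 34 had a gap of 5000 bp and were not. The 5 farthest regions lay 2.49 to 3.88 Mb from H3K27me3. The first 3 of them stood together on chromosome 3. One spanned 22020401 to 22021600 (1.2 kb wide, 3.88 Mb from H3K27me3), one 21973601 to 21977600 (4 kb wide, 3.83 Mb away) and one 21833401 to 21836000 (2.6 kb wide, 3.69 Mb away). The other two lay on chromosome 13 (81101801 to 81103000, 2.56 Mb away) and chromosome 4 (68614601 to 68616400, 2.49 Mb away).

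Density was 5.49 H3K4me3-only regions per Mb of autosome, or 1 region per 182 kb. It was 1.80 per Mb for medium-width regions that overlapped H3K27me3 and 8.59 per Mb for the 21231 H3K4me3 regions under 1000 bp that also lay more than 5000 bp from H3K27me3. Between autosomes the density of H3K4me3-only regions varied 2.31-fold, with a mean of 5.56 ± 1.41 per Mb (SD over 19 autosomes, which are not replicates). Chromosome 11 was the densest, at 9.003 per Mb, and carried 8.09% of the set on 4.93% of the autosomal length. Chromosomes 17 and 19 followed, at 7.42 and 7.22 per Mb, and then chromosomes 7 and 9, at 6.67 and 6.56 per Mb. The sparsest were chromosomes 1, 14, 18 and 3, at 3.90, 3.91, 4.00 and 4.04 per Mb. The longest autosome, chromosome 1, thus held 769 regions and the much shorter chromosome 11 held 1097.

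**Figure D1:**
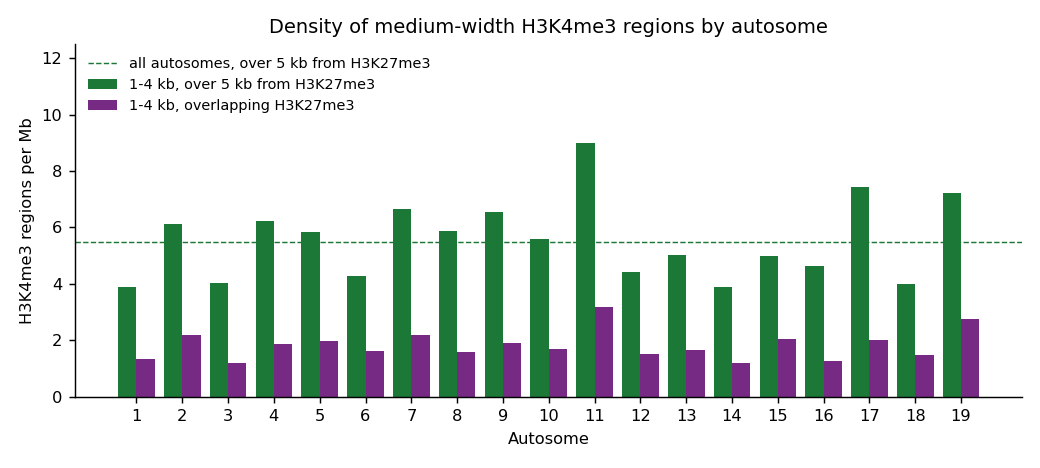
Regions per Mb (vertical axis) on each of the 19 autosomes (horizontal axis), for H3K4me3 regions of 1 to 4 kb that lie more than 5 kb from H3K27me3 (left bars) and for those of the same widths that overlap it (right bars). The dashed line is the 5.49 per Mb of all autosomes; chromosome 11 is highest for both, at 9.003 and 3.18 per Mb.

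Of the remaining H3K4me3 regions, 2 classes were compared over the autosomes, and both were spread in much the same order. Over the 19 autosomes, Spearman's rho of H3K4me3-only density was 0.85 with the density of medium-width regions that overlapped H3K27me3 (Pearson's r = 0.89). It was 0.85 with the density of the narrower regions far from H3K27me3 (r = 0.91). With the density of H3K27me3 regions rho was 0.74 (r = 0.73). These are descriptions over chromosomes of 1 pair of lists. The classes share the same libraries, the same unassembled sequence and whatever differs between chromosomes in genes and base composition. The densities varied over autosomes by a coefficient of variation of 25.4% for H3K4me3-only regions, 28.2% for overlapping regions, 17.8% for narrow far regions and 33.9% for H3K27me3 regions.

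The share of medium-width regions that were H3K4me3-only varied less than the density did. It ran over the autosomes between 65.2% on chromosome 15 (61.8 to 68.4%) and 77.0% on chromosome 16 (73.4 to 80.2%). Chromosome 11, the densest, had 69.4% (67.1 to 71.6%), and chromosome 1, the sparsest, 72.1% (69.3 to 74.7%). Chromosome 5 had the most H3K27me3 regions, at 13.3 per Mb, unevenly spread, with 116 of them between 119000001 and 120000000. Its share of 71.5% (68.9 to 73.9%) was close to the 71.7% of all autosomes. Chromosome 3 had the fewest H3K27me3 regions, at 3.46 per Mb, and its share was 74.1% (71.1 to 76.9%).

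Over the pooled windows of all autosomes the H3K4me3-only regions were gathered in dense stretches. Differences in density between autosomes are part of the spread given here. In windows of 1 Mb the median count was 3 (quartiles 0 and 8), the mean was 5.47 and the variance was 8.38 times the mean. Of 2482 windows, 74.6% (72.8 to 76.3%) held at least 1. A count of 20 or more was reached in 121 windows (4.88%), and 631 windows (25.4%) held none, 56 of which end before the first called H3K4me3 region of their autosome. The fullest 248 windows held 39.3% of the set, and 362 windows (14.6%) sufficed to hold 50% of it. For the medium-width regions that overlapped H3K27me3, the fullest 248 windows held 44.1%, and 60.9% of windows had at least 1. Its variance was 3.65 times its mean. For the narrow far regions, the fullest 248 windows held 33.4%, 86.7% of windows had at least 1 and the variance was 9.29 times the mean. Uneven spread was thus not particular to the set. The classes differ in size and these values depend on the number of regions, so whether the classes differ in clustering was not determined.

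**Figure D2:**
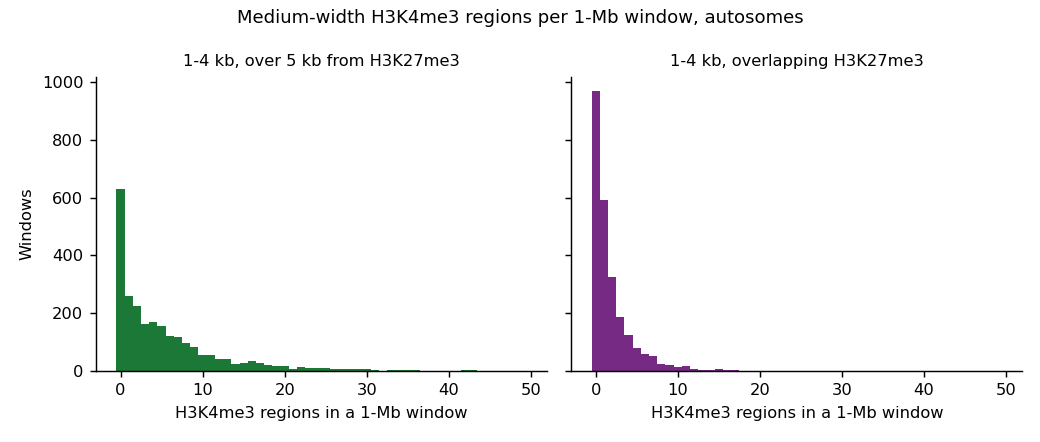
Number of 1-Mb autosomal windows (vertical axis) by how many H3K4me3 regions of 1 to 4 kb they hold (horizontal axis), for regions more than 5 kb from H3K27me3 (left) and for regions overlapping it (right). On the left 631 of 2482 windows are empty and the fullest holds 48; on the right the fullest holds 20.

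The fullest window was on chromosome 10 (79000001 to 80000000), with 48 H3K4me3-only regions. The window beside it (80000001 to 81000000) held 45. A window on chromosome 11 (115000001 to 116000000) held 44, and windows on chromosome 2 (30000001 to 31000000) and chromosome 4 (133000001 to 134000000) held 43 each. H3K27me3 was present in all 5 of these windows, but in unequal numbers. The pair on chromosome 10 had 35 and 31 H3K27me3 regions and 19 and 17 medium-width H3K4me3 regions that overlapped them. The window on chromosome 4 had 9 H3K27me3 regions and 1 such overlapping region.

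Windows rich in H3K4me3-only regions held more H3K27me3 at the median. The median number of H3K27me3 regions was 0 in windows with no H3K4me3-only region, 2 with 1 to 4, 5 with 5 to 9, 11 with 10 to 19 and 13 with 20 or more. Across the 2482 windows, Spearman's rho between the counts was 0.60, given as a description. It was higher with narrow far regions, at 0.83. With medium-width regions that overlapped H3K27me3 it was 0.54, and with those near it without overlap 0.47. The relation was thus not particular to H3K27me3 regions. Of the windows with H3K4me3-only regions, 14.4% (12.9 to 16.1%) had no H3K27me3 region, and these held 6.97% of the set. Of the windows without them, 55.3% (51.4 to 59.1%) had no H3K27me3 region and 32.5% had no H3K4me3 region of any width. These shares count those 56 windows too. Among the 575 windows that remain without them, the shares were 50.96% (46.9 to 55.02%) and 25.9% (22.5 to 29.6%). At least 1 H3K27me3 region was called in 44.7% of all windows without H3K4me3-only regions, but the upper quartile over these windows was only 1. The rule itself leaves out H3K4me3 regions near H3K27me3, so a window crowded with H3K27me3 has less room for the set. One window without H3K4me3-only regions, on chromosome 5 (119000001 to 120000000), held 116 H3K27me3 regions. That window was picked for its count. Between consecutive H3K4me3-only regions, 73.2% of the 13547 intervals held no H3K27me3 region.

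H3K27me3 regions divided the set into 3655 chains of consecutive H3K4me3-only regions with no H3K27me3 call between them. The median chain had 2 regions (quartiles 1 and 5), and 265 chains of 10 or more held 28.0% of the set. The longest 3 chains were named after their values were seen. The first, on chromosome 13 (65379201 to 67946200, 2.57 Mb), had 45 regions. One on chromosome 4 (115725401 to 116962800, 1.24 Mb) had 34, and one on chromosome 2 (29642001 to 30299200, 0.657 Mb) had 31. The chain on chromosome 2 was thus packed more closely than the one on chromosome 13.

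Pooled over autosomes, density was higher toward the end of the chromosomes that is far from the centromere. Mouse chromosomes have their centromere at 1 end, where numbering starts. When each chromosome was divided into 10 equal parts, the density was 7.50 per Mb in the last part and 7.31 per Mb in the part before it, and 4.76 to 5.77 per Mb in parts 2 to 8. It was 3.52 per Mb in the first part, where the first called H3K4me3 region of each autosome started at 3.00 to 3.52 Mb. The length before that region holds no call but counts in the density of the first part. A density without that length was not computed for this part. The rise toward the last part was not common to all autosomes. The last part was denser than the whole chromosome on 12 of 19, reached 15.5 per Mb on chromosome 11 and was lowest on chromosome 18, at 1.98 per Mb. Regions that overlapped H3K27me3 had 2.70 per Mb in the last part and 1.80 per Mb over the autosomes, and narrow far regions had 13.4 and 8.59 per Mb.

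Intervals between neighbours were very uneven. The median interval between consecutive H3K4me3-only regions was 44.2 kb (quartiles 14.4 and 128.6 kb), while the mean was 176 kb. Intervals over 1 Mb were 3.58% of the number and took up 42.3% of the autosomal length. By autosome, the median interval was shortest on chromosome 7, at 30.4 kb, and longest on chromosome 12, at 67.6 kb. The longest interval with no H3K4me3-only region spanned 12.4 Mb of chromosome 15 (12892201 to 25293800). It held 16 H3K4me3 regions, of which 1 was of medium width, and 6 H3K27me3 regions. Chromosome 14 had the next pair, of 11.6 Mb (87817801 to 99443000) and 8.93 Mb (106506401 to 115439400). They held 12 and 9 H3K4me3 regions and 9 and 8 H3K27me3 regions. Intervals of 8.77 Mb on chromosome 5 (54391201 to 63156600) and 8.61 Mb on chromosome 6 (73265601 to 81873400) followed, with 7 and 12 H3K4me3 regions and 9 and 8 H3K27me3 regions. The autosomes as a whole had 18.9 H3K4me3 and 7.34 H3K27me3 regions per Mb, so these long intervals were poor in both marks. They were picked for holding no H3K4me3-only region, while the 18.9 per Mb includes such regions. A low H3K4me3 count is therefore partly built into the choice.

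The nearest other H3K4me3-only region lay at a median distance of 21.0 kb (quartiles 6.8 and 55.2 kb). The nearest H3K4me3 region of any width lay at a median of 7.0 kb (quartiles 2.2 and 19.8 kb). For medium-width regions that overlapped H3K27me3 the second distance was 6.4 kb (1.8 and 22.2 kb), and for narrow far regions it was 6.0 kb (1.8 and 17.2 kb). No H3K4me3 region of any width lay within 50 kb of 7.80% of H3K4me3-only regions (7.36 to 8.26%). That share was 12.2% (11.3 to 13.2%) for the overlapping regions and 8.60% (8.23 to 8.99%) for the narrow far regions. Within 1000 bp the shares with a neighbour were 13.6% (13.0 to 14.1%) for H3K4me3-only regions and 18.3% (17.2 to 19.5%) for overlapping regions. The overlapping regions thus had the larger shares both with a very near neighbour and with none nearby, which the plot of neighbour distances shows as a flatter curve. With 1 list per mark no test of these differences over replicates was possible.

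**Figure D3:**
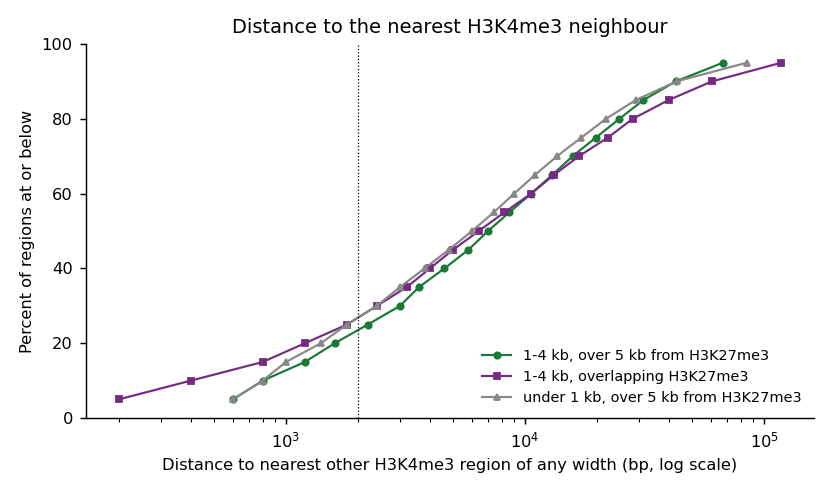
Percent of regions (vertical axis) whose nearest other H3K4me3 region of any width lies at or below the distance on the horizontal axis (bp, log scale), for 3 classes of autosomal H3K4me3 region; points are 5 percentiles apart and the dotted line marks 2 kb. The curve of regions overlapping H3K27me3 lies left of that of H3K4me3-only regions at the bottom and right of it at the top, and the curves meet at 60%.

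Few H3K4me3-only regions had a close partner of their own kind. Another H3K4me3-only region lay within 2 kb of 1214 of them, or 8.95% (8.48 to 9.44%). Some H3K4me3 region of any width lay within 2 kb of 3223, or 23.8% (23.0 to 24.5%), and 460 (3.39%) had one on both sides. For medium-width regions that overlapped H3K27me3, 12.0045% (11.1 to 13.0%) had another such region within 2 kb and 27.8% (26.5 to 29.2%) any H3K4me3 region. For narrow far regions the shares were 17.8% (17.3 to 18.3%) and 27.6% (26.995 to 28.2%). For the 923 medium-width regions that lay near H3K27me3 without overlap they were 5.31% (4.04 to 6.95%) and 35.0% (32.0 to 38.1%). The share with a partner of the same kind depends on how many regions a class holds, so its order between classes was not read. The share with any H3K4me3 region was lowest for H3K4me3-only regions taken as a whole, and this difference between classes was not tested. Within the set that share varied with distance to H3K27me3, a value the rule used. It was 26.7% (25.4 to 28.1%) beyond 10 kb and up to 50 kb, and 14.3% (12.1 to 16.8%) beyond 500 kb.

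The close neighbours of H3K4me3-only regions were mostly narrow, as were H3K4me3 regions in general. Among the 3223 with a neighbour within 2 kb, the nearest one was under 1000 bp in 2073 (64.3%, 62.6 to 66.0%), and another H3K4me3-only region in 1043 (32.4%). It was wider than 4000 bp in 90 (2.79%) and of medium width but close to H3K27me3 in 17 (0.527%). The median width of that neighbour was 600 bp, and 33.6% (32.0 to 35.2%) were a single step of 200 bp, the smallest width in the list. Of all autosomal H3K4me3 regions, 58.0% were under 1000 bp, 25.8% were a single step, 1.502% were wider than 4000 bp and 29.1% were H3K4me3-only. The shares among close neighbours were somewhat above those of the list as a whole for narrow and H3K4me3-only regions and for a single step. However, that list includes regions at or near H3K27me3, which the rule makes rare as close neighbours of the set. Farther than 5000 bp from H3K27me3, the autosomes held 13566 H3K4me3-only regions, 21231 under 1000 bp and 547 wider than 4000 bp. All H3K4me3-only regions are among these, so their share of them is above 29.1%, and the whole list gives too low a base. A comparison of shares with those regions alone was not made, so these differences and their direction were not read.

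The 1214 partnered regions fell into 573 runs in which each region lay 2 kb or less from the next. A pair was the usual form, with 515 runs of 2, and there were 49 runs of 3, 8 of 4 and 1 of 5. These runs contained 641 gaps between neighbours, and 94.4% of the gaps held no narrower H3K4me3 region. The next values are over all 641 gaps, those in longer runs included, so a region between 2 gaps counts for both. The 2 regions beside a gap measured 4.8 kb from end to end at the median (quartiles 4.0 and 5.6 kb). The wider of the 2 had a median width of 2200 bp and the narrower one of 1200 bp. That the first is larger follows from sorting them by width. Widths were equal at 53 gaps (8.27%). Partnered regions had the same median width as the rest of the set, 1600 bp, with quartiles of 1200 and 2400 bp against 1200 and 2200 bp. They lay somewhat nearer to H3K27me3, at a median of 64.4 kb (27.4 and 131.8 kb) against 80.2 kb (32.8 and 188.1 kb) for regions without a partner, and these quartile ranges overlapped widely.

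The run of 5 lay on chromosome 11 (98643601 to 98659000), 39.4 kb from H3K27me3. It spanned 15.4 kb and its regions covered 55.8% of that span. The 4 regions first along the chromosome measured 1400, 1400, 1200 and 1000 bp, and the last measured 3600 bp. The gaps between them were 2000, 1600, 1800 and 1400 bp. Among the runs of 4, the longest lay on chromosome 10 (60698601 to 60712800, 14.2 kb), where regions covered 63.4% of the span. Runs of 4 on chromosome 7 (29156001 to 29168200, 12.2 kb), chromosome 4 (125928401 to 125940400, 12 kb) and chromosome 5 (110528001 to 110539800, 11.8 kb) were packed more closely, with 75.4%, 75% and 72.9% of the span covered. They lay 71.6, 19.6 and 230.8 kb from H3K27me3.

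Gaps between close H3K4me3-only regions were most often 600 bp. Among 605 adjacent pairs with a gap of 2000 bp or less, 40 had a gap of 200 bp, 23 one of 400 bp and 90 one of 600 bp, the most frequent value. Gap counts then declined to 52 at 1800 bp and stood at 67 at 2000 bp. Gaps of 200 and 400 bp together made up 10.4% (8.22 to 13.1%). They made up 16.6% (15.7 to 17.4%) over all adjacent autosomal H3K4me3 regions with gaps of this size and 7.97% (6.87 to 9.23%) where both regions were narrow and far from H3K27me3. Among 258 adjacent pairs in which both medium-width regions overlapped H3K27me3 the order was different, with 49 gaps of 200 bp, 40 of 400 bp and 16 of 600 bp. There the 2 shortest gaps made up 34.5% (29.0 to 40.5%). Gaps between an H3K4me3-only region and a narrow far region again showed few at 400 bp (80) and most at 600 bp (405), with 230 at 200 bp. The rise between 400 and 600 bp was also present in the whole autosomal list, with 468 and 1244 gaps, so it was not confined to the H3K4me3-only set. Gaps are multiples of the 200-bp grid, and the part that region calling had in this pattern was not tested.

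**Figure D4:**
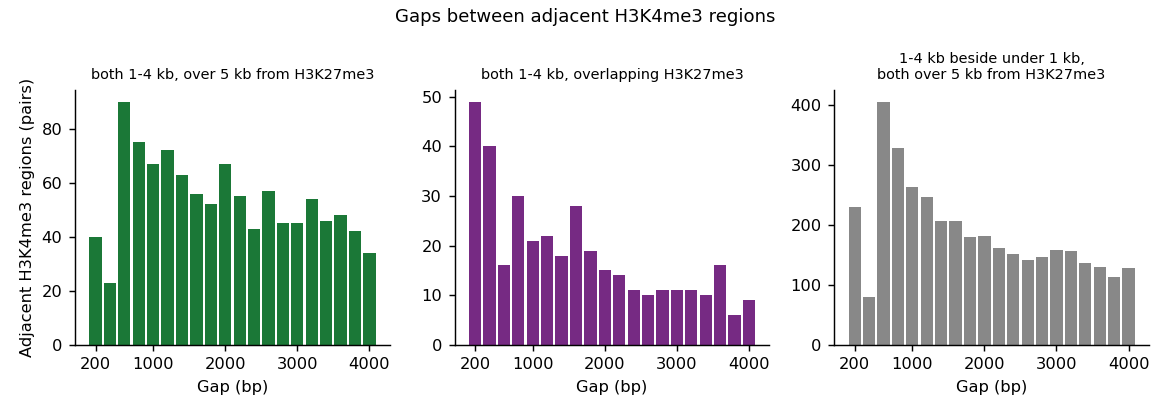
Number of adjacent H3K4me3 regions (vertical axis, with its own scale in each panel) by the gap between them (horizontal axis, bp, in steps of 200). Where both regions are 1 to 4 kb and more than 5 kb from H3K27me3 (left), counts are 40, 23 and 90 at 200, 400 and 600 bp; where both overlap H3K27me3 (middle), they are 49, 40 and 16; the right panel shows a 1 to 4 kb region beside one under 1 kb, both more than 5 kb from H3K27me3.

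Close pairs were concentrated where the set was dense. In 1-Mb windows with 1 to 4 H3K4me3-only regions, 1.87% (1.35 to 2.59%) had a partner within 2 kb. The share was 5.43% (4.76 to 6.20%) with 5 to 9, 9.001% (8.21 to 9.86%) with 10 to 19 and 17.2% (15.9 to 18.5%) with 20 or more. The windows of the last kind held 23.7% of the set and 45.5% of its partnered regions. Closer spacing is built into a denser window, and the share that even placement would give was not computed. The median distance to the nearest H3K4me3-only region in the same 4 kinds of window was 99.2, 33.4, 16.6 and 8.8 kb.

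**Figure D5:**
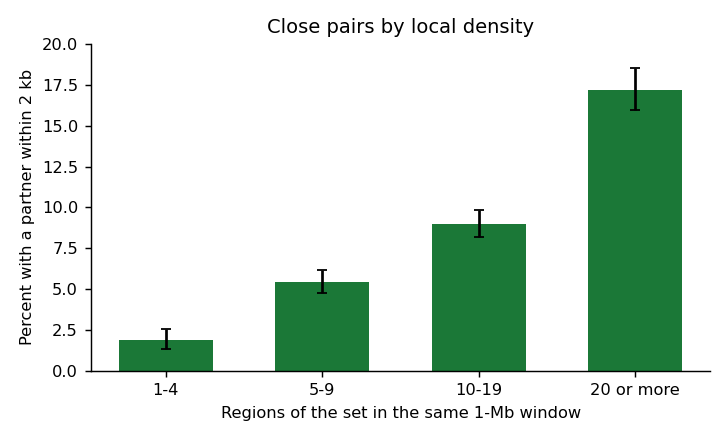
Percent of H3K4me3-only regions with another within 2 kb (vertical axis) by the number of such regions in the same 1-Mb window (horizontal axis). Bars are shares with 95% Wilson intervals; they stand at 1.87%, 5.43%, 9.001% and 17.2%.

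Partnering also varied by autosome and did not follow density closely. The share with a partner within 2 kb was highest on chromosome 10, at 13.1% (10.8 to 15.8%), although the density there was 5.58 per Mb, near the mean over autosomes. Chromosomes 19 and 8 followed, at 12.2% (9.46 to 15.6%) and 12.1% (10.0 to 14.6%). The lowest share was on chromosome 1, at 4.55% (3.29 to 6.26%), and chromosome 6 had 5.33% (3.84 to 7.35%). Chromosome 9 had a share of 7.00% (5.44 to 8.96%) at a high density of 6.56 per Mb. Over the 19 autosomes Spearman's rho between density and share was 0.57 (Pearson's r = 0.55), as a description.

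Neighbours are also given by distance to H3K27me3, a value the rule used, as a description. At 10 kb or less from H3K27me3, 9.17% (7.34 to 11.4%) of the H3K4me3-only regions had a partner within 2 kb, and the nearest one lay 23.0 kb away at the median. Here the rule itself removes medium-width neighbours on the side of the H3K27me3 region. The values were 10.6% (9.66 to 11.52%) and 16.2 kb beyond 10 kb and up to 50 kb, and 10.2% (9.10 to 11.3%) and 17.4 kb up to 100 kb. They were 7.74% (7.02 to 8.52%) and 24.4 kb up to 500 kb, and 3.85% (2.77 to 5.34%) and 52.1 kb farther out. The relation was thus not steady, and the class beyond 500 kb had the lowest share. In the same 5 classes, 26.2%, 26.7%, 25.6%, 21.5% and 14.3% had any H3K4me3 region within 2 kb. Median widths were 1600 to 1800 bp in all 5 classes. By width, a partner was found for 10.0% (9.09 to 11.0%) of regions of 1000 and 1200 bp, 8.26% (7.49 to 9.11%) at 1400 to 1800 bp, 8.12% (7.32 to 9.004%) at 2000 to 2800 bp and 10.8% (9.20 to 12.6%) at 3000 to 4000 bp, so the share did not change steadily with width.

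The most crowded surroundings were found on chromosomes 4 and 9. The median H3K4me3-only region had 1 other H3K4me3 region within 10 kb (quartiles 0 and 2). A region on chromosome 4 (140851401 to 140852800) and one on chromosome 9 (114445601 to 114447600) had 10 each, and a second on chromosome 4 (140847401 to 140848600) had 9. These 3 lay 46, 43.4 and 42 kb from H3K27me3.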

How the data were processed

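H3K27me3 and H3K4me3 ChIP-seq of sorted germ cells gave 1 deposited list of regions per mark. Bowtie 0.12.7 and build mm9 are named in the submitters' processing notes. The authors' deposited files have 4 columns, chromosome, start, end and name, with positions in bp on a 200-bp grid and no count or score. Their names call the regions contiguous ChromHMM regions. How ChromHMM was set, whether it used the input and how replicates were merged is not given in the sources used here.

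Distances were taken edge to edge and coordinates are printed counting from 1. Chromosome lengths of mm9 came from GenomeInfoDb 1.38.1. Windows of 1 Mb started at base 1 and took a region by its midpoint. Functions were tested on simulated lists. Named regions are the 5 farthest from H3K27me3, the 5 longest runs, the 5 fullest windows, the 5 longest intervals and the 3 with most H3K4me3 within 10 kb. The set and these rules were chosen with earlier results of these data known. No test was run, since each group has 1 sample. The planned gene lists and cell type markers were not analysed here, because no mm9 annotation was used. Software was R 4.3.3 and Python 3.11.15 with scipy 1.17.1, pandas 2.3.3, numpy 2.4.6 and matplotlib 3.10.9.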

Additional observations from a re-analysis of the deposited data

How the results depend on the processing

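No paired analysis was possible because each mark has 1 list and the labels number no replicates, and no replicate could be left out. Counts and ratios were called alike within 1.5 times the reported value, and percentages and medians inside its 95% interval (Wilson, or binomial for a median). Of 63 values under alternatives for 8 results, 49 stayed alike and 14 moved. The number of regions (12650 to 16352), the density and its 2.31-fold range over autosomes stayed alike under every alternative run. With widths of 1000 to 3000 bp the median distance to the nearest region of the set was 23.2 kb and the share with a partner 8.06%. With widths of 800 to 4000 bp they were 17.4 kb and 11.0%, and 77.9% of windows were occupied. With H3K4me3 gaps of 400 bp or less joined, the share with a partner was 8.20%, the share with any H3K4me3 region within 2 kb 21.6% and the median distance to any 7.4 kb (also 7.4 kb with H3K27me3 over 10 kb away). A pair distance of 1000 bp gave 4.28% and 13.6% for those shares, and 5000 bp gave 19.9% and 42.2%. Windows of 0.5 Mb were occupied in 60.3%. The pair and window values move by construction. Joining short gaps also removes close neighbours, and other width limits change which regions are counted, so the settings themselves act on those values. Other causes were not tested. How far sequencing depth limited the calls cannot be told from lists without read counts.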

Other observations

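The chromosomes left out also carried regions of the same widths at the same distance. X had 335 of them, 2.01 per Mb, against 5.49 per Mb on the autosomes. They were 59.1% (55.0 to 63.1%) of its medium-width H3K4me3 regions, against 71.7% on the autosomes, and 3.58% (2.06 to 6.16%) had another within 2 kb, against 8.95%. Y had 9 such regions among 33 H3K4me3 regions. The only H3K4me3 region of the mitochondrial genome also met both limits. The distance limit counts as met wherever a chromosome has no H3K27me3 call, and whether this call reflects the mark was not tested. Depth on these chromosomes is unknown, and its part in these values was not tested.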
